A study of Mus musculus with 6 samples.

Results

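Immunoglobulin heavy-chain gene segments were examined in RNA of mouse Tregs. Tregs are regulatory T cells, a CD4 lineage that restrains immune responses and requires the transcription factor Foxp3. The members were the rows of the deposited gene table whose biotype begins with IG_, that lie on chromosome 12 and that had at least 10 counts summed over the 6 libraries. That sum, taken over both genotypes, is the measured value the members were chosen by. The rule kept 80 of the 233 heavy-chain rows, in a table of 55840 genes: all 8 constant genes, all 4 J genes, 2 of 19 D genes and 66 of 113 V genes. No pseudogene was kept. Of the 153 rows left out, 118 had 0 counts in every library. Ighv1-5 and Ighv14-1, with 10 counts each, lay just inside the minimum, and Ighv13-2 and Ighv9-4, with 9 counts each, just outside.

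The study compared wild-type (WT) Tregs with Tregs labelled Exon2KO, which the series title describes as carrying the delta 2 form of Foxp3, both taken from lymph nodes and spleen. There were 3 libraries of each genotype, labelled as biological replicates. The labels used here give no strain, age, treatment or sorting gate, and they do not say whether a library came from 1 mouse or from a pool. Libraries are named by genotype and by the number in their data column (2, 6 or 20), because the sample titles number the replicates in another way.

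Total counts ran from 17998216 to 21003496 per library, and 3 counts, taken as the smallest level a library can show, corresponded to 0.141 to 0.169 CPM (read counts scaled to the normalised library size). Foxp3 itself had 712 ± 96.5 CPM in WT and 812 ± 121 CPM in Exon2KO libraries (SD, n = 3 each), and a count over the whole gene does not show whether exon 2 is present. All 8 genes of a Treg identity list were detected. Of these, 3 (Ikzf2, Il2ra and Ctla4) were called lower in Exon2KO by edgeR, against 1.58% of all tested genes. With the column number as a block Tnfrsf18 was called lower as well (log2 fold change -0.73, adjusted p = 0.000209, edgeR, against 0.0585 without the block), and DESeq2 also called it. With that block, 5.79% of all tested genes were called lower. DESeq2 called 643 of 15864 genes in either direction. Both libraries numbered 20 stood apart on the leading principal component of the tested genes (33.0% of the variance on the log2 scale), at -36.9 for WT 20 and -33.3 for Exon2KO 20, with the other libraries between -0.62 and 33.6. Calls that changed without both of these libraries are named with the gene concerned.

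As background, a heavy chain is encoded by a V, a D and a J segment that are joined by recombination during B-cell development, followed by a constant gene that sets the antibody class. The locus can also be transcribed without rearrangement: such germline or sterile transcripts start near the J-proximal D segment, in the intron before Ighm or before a switched constant gene, and they carry no joined V segment. Heavy-chain germline transcripts are known in T cells, whose functional antigen receptor uses other loci. A gene count does not separate rearranged from germline transcripts, or membrane from secreted forms.

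The segments on which the result turned were the 4 J genes and Ighd4-1, the D segment closest to them, and their sequences show how short the segments are. They are the GENCODE mouse release 21 transcripts on GRCm38, minus strand, written 5′ to 3′, with the stretch matching TGGGGNNNNGG in capitals. That stretch encodes the tryptophan-glycine motif shared by heavy-chain J segments, and Ighd4-1 holds no match.
Ighd4-1: ctaactgggac
Ighj1: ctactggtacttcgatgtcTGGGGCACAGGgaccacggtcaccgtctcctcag
Ighj2: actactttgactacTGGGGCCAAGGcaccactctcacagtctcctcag
Ighj3: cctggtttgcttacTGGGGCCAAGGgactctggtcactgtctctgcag
Ighj4: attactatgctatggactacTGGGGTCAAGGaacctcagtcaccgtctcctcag

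In genomic order along the direction of transcription, Ighd4-1 lies at chr12:113430528-113430538, Ighj1 at chr12:113429781-113429833, Ighj2 at chr12:113429468-113429515, Ighj3 at chr12:113429085-113429132 and Ighj4 at chr12:113428514-113428567. The gene model of Ighj2 extends to 113429567, which is 52 bases upstream of the segment itself. Ighd4-1 ends 694 bases before Ighj1, the 4 J genes span 1320 bases, and 5783 bases separate Ighj4 from Ighm at chr12:113418558-113422730. From the motif to its 3′ end, each J segment has 34 bases, and pairs of them were identical at 25 to 28 of these positions. The motif, searched on both strands, also occurred in 1.71% of the first 54 bases of all 141647 mouse transcripts that long. These segments (11 to 54 bases) are shorter than a usual sequencing fragment, as is the 100-base gene model counted for Ighj2. A level per length therefore has no meaning for them, and only fold changes are compared.

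The J genes and Ighd4-1 had the largest falls among the tested members. Ighd4-1 fell from 167, 124 and 171 counts in WT 2, 6 and 20 to 15, 18 and 13 counts in the Exon2KO libraries of the same numbers. In CPM this was 7.94 ± 1.07 in WT and 0.829 ± 0.0960 in Exon2KO (SD, n = 3 each). The log2 fold change was -3.25 (SE 0.25), with an adjusted p of 0.00085 in edgeR's quasi-likelihood test. The lowest WT library stood at 6.83 CPM and the highest Exon2KO library at 0.923 CPM, so the groups were far from overlapping. The other D member, Ighd1-1, lies 51631 bases further upstream at chr12:113482170-113482192. It had 3, 4 and 1 counts in WT against 0, 4 and 0 in Exon2KO, too few to be tested.

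All 4 J genes, which supply the last part of the variable region, were called lower in Exon2KO. Ighj1 had 154, 95 and 131 counts in WT 2, 6 and 20 against 9, 13 and 4 counts in Exon2KO 2, 6 and 20, with a log2 fold change of -3.79 (SE 0.38, adjusted p = 0.00195, edgeR). Ighj2 had 120, 54 and 89 counts in WT against 5, 16 and 5 in Exon2KO, with a log2 fold change of -3.26 (SE 0.48, adjusted p = 0.00941, edgeR). In both genes every Exon2KO library lay below every WT library, and WT 2 was the highest library. Ighj3 had 134, 64 and 103 counts in WT against 7, 7 and 16 in Exon2KO, with a log2 fold change of -3.23 (SE 0.44, adjusted p = 0.00626, edgeR). Ighj4 had 113, 81 and 131 counts in WT against 11, 4 and 15 in Exon2KO, with a log2 fold change of -3.33 (SE 0.42, adjusted p = 0.00467, edgeR). The groups did not overlap in these genes either. Ighj2 lost its call without WT 2 (adjusted p = 0.0568, edgeR) and without Exon2KO 2 (adjusted p = 0.0654, edgeR), at log2 fold changes of -2.93 and -3.01. It was at -3.997 without Exon2KO 6, and Ighj3 was at -3.82 without both libraries numbered 20, both called.

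**Figure D1:**
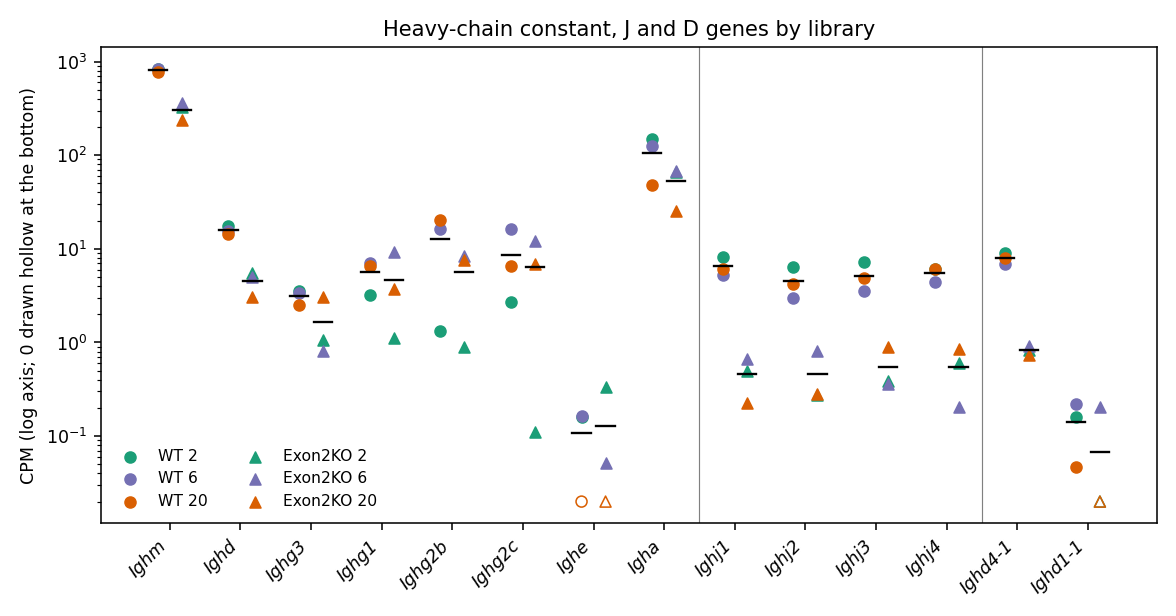
Normalised read count (CPM, log axis) of each constant, J and D member in each library, with circles for WT, triangles for Exon2KO, a colour for each column number and black bars for group means. Hollow symbols at the bottom stand for 0 counts. The triangles of Ighm, Ighd, the 4 J genes and Ighd4-1 all lie below the circles, and the IgG genes and Igha overlap.

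The constant genes are long enough to compare per kilobase of gene length, and Ighm, which encodes the IgM constant region, was by far the most abundant. Its counts were 15494, 15126 and 16543 in WT 2, 6 and 20 against 5848, 6981 and 4197 in Exon2KO 2, 6 and 20. Per kilobase, Ighm stood at 431 ± 17.2 CPM in WT and 162 ± 33.4 CPM in Exon2KO (SD, n = 3 each). The fall was 2.66-fold (log2 fold change -1.41, SE 0.14, adjusted p = 0.00253, edgeR), and no Exon2KO library reached the lowest WT library. Ighd, the IgD constant gene 2233 bases downstream of Ighm and usually transcribed with it, lies at chr12:113406604-113416324. It had 330, 284 and 305 counts in WT against 100, 98 and 54 in Exon2KO. It fell 3.49-fold (log2 fold change -1.80, SE 0.23, adjusted p = 0.00435, edgeR), again with no overlap. In these bulk samples, fewer cells that make a transcript and less of it per cell cannot be told apart.

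The switched constant genes, which replace Ighm when an antibody changes class, were not called. Igha, the IgA gene at chr12:113254830-113260236, was the second most abundant. It had 2753, 2252 and 1020 counts in WT 2, 6 and 20 against 1179, 1336 and 447 counts in Exon2KO 2, 6 and 20. The groups overlapped, because WT 20 lay below Exon2KO 2 and 6, and within each number the Exon2KO library was the lower. Its log2 fold change was -1.003 (SE 0.60, adjusted p = 0.658, edgeR). With the column number as a block, a fit that compares the libraries of each number with each other, Igha was called lower (log2 fold change -0.99, SE 0.07, adjusted p = 5.43e-07, edgeR), and without both libraries numbered 20 it was called as well (-1.02, adjusted p = 0.00146, edgeR).

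Of the IgG genes, Ighg2b, Ighg2c and Ighg1 varied more between libraries of a genotype than between genotypes, with the number-2 libraries lowest in each genotype. Ighg2b (chr12:113302965-113307933) had 25, 296 and 438 counts in WT 2, 6 and 20 against 16, 164 and 134 in Exon2KO 2, 6 and 20, with a log2 fold change of -1.18 (SE 1.19, adjusted p = 0.834, edgeR). With the block on the column number Ighg2b was called lower (log2 fold change -1.12, SE 0.18, adjusted p = 6.68e-04, edgeR). With no block, leaving out 1 library put the log2 fold change between -1.72 (without WT 2) and -0.65 (without WT 20), not called. Its WT and Exon2KO libraries overlapped, since WT 2 was below Exon2KO 6 and 20. Ighg2c (chr12:113285325-113288932) had 50, 295 and 141 counts in WT against 2, 238 and 123 in Exon2KO, with a log2 fold change of -0.40 (SE 1.301). Ighg1 (chr12:113325240-113330523) had 60, 128 and 139 counts in WT against 20, 181 and 66 in Exon2KO, with a log2 fold change of -0.25 (SE 0.72). Neither gene was called, and for both the standard error exceeded the difference. Ighg3 (chr12:113356224-113361232) had 66, 62 and 54 counts in WT against 19, 16 and 55 in Exon2KO, so that Exon2KO 20 alone stood at the WT level. Its log2 fold change was -0.93 (SE 0.47, adjusted p = 0.507, edgeR), against -1.75 without Exon2KO 20 (adjusted p = 0.0388, edgeR). Without both libraries numbered 20 it was -1.89 (adjusted p = 0.0268, edgeR). Ighe, the IgE gene (chr12:113269260-113273248), had 3, 3 and 0 counts in WT against 6, 1 and 0 in Exon2KO and was not tested.

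The share of Ighm in the constant-gene level overlapped between genotypes. Per kilobase, Ighm made up 85.1% to 90.8% of the summed constant-gene level in WT libraries and 81.0% to 85.6% in Exon2KO libraries. Igha followed with 3.96% to 10.8% in WT and 6.42% to 12.2% in Exon2KO. Ighd made up 1.59% to 1.82% in WT and 1.09% to 1.45% in Exon2KO, and each of the other genes stayed below 4%. The Igha shares overlapped as well, and the Ighd shares did not. Within each of the 3 column numbers, the Exon2KO library had the lower Ighm share and the higher Igha share.

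Relative to Ighm within the same library, Ighd4-1, upstream of it, and Ighd, downstream of it, were lower in Exon2KO. Ighd4-1 had 10.8, 8.20 and 10.3 counts per 1000 Ighm counts in WT 2, 6 and 20 against 2.56, 2.58 and 3.10 in Exon2KO 2, 6 and 20. Ighd had 21.3, 18.8 and 18.4 counts per 1000 Ighm counts in WT against 17.1, 14.0 and 12.9 in Exon2KO. Neither ratio overlapped between the groups: the mean was 3.56-fold lower for Ighd4-1 and 1.33-fold lower for Ighd. Igha had 178, 149 and 61.7 counts per 1000 Ighm counts in WT against 202, 191 and 107 in Exon2KO, so the groups overlapped, and within each of the 3 column numbers the Exon2KO library had the higher ratio. A two-sided exact permutation test of the log2 ratios gave p = 0.1 for Ighd4-1 and for Ighd, the smallest p that 3 against 3 libraries allow, and p = 0.5 for Igha (0.15, 0.15 and 0.5 after adjustment over these 3 ratios). That test does not use the pairing by column number.

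The J sum per 1000 Ighm counts behaved in the same direction, at 19.4 to 33.6 in WT and 5.47 to 9.53 in Exon2KO. V genes went the other way: their sum was 38.5 to 54.1 per 1000 Ighm counts in WT against 66.5 to 76.2 in Exon2KO. For each J count there were 1.40 to 2.78 V counts in WT libraries and 8 to 13.1 in Exon2KO libraries. None of these 3 ratios overlapped between the genotypes.

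**Figure D2:**
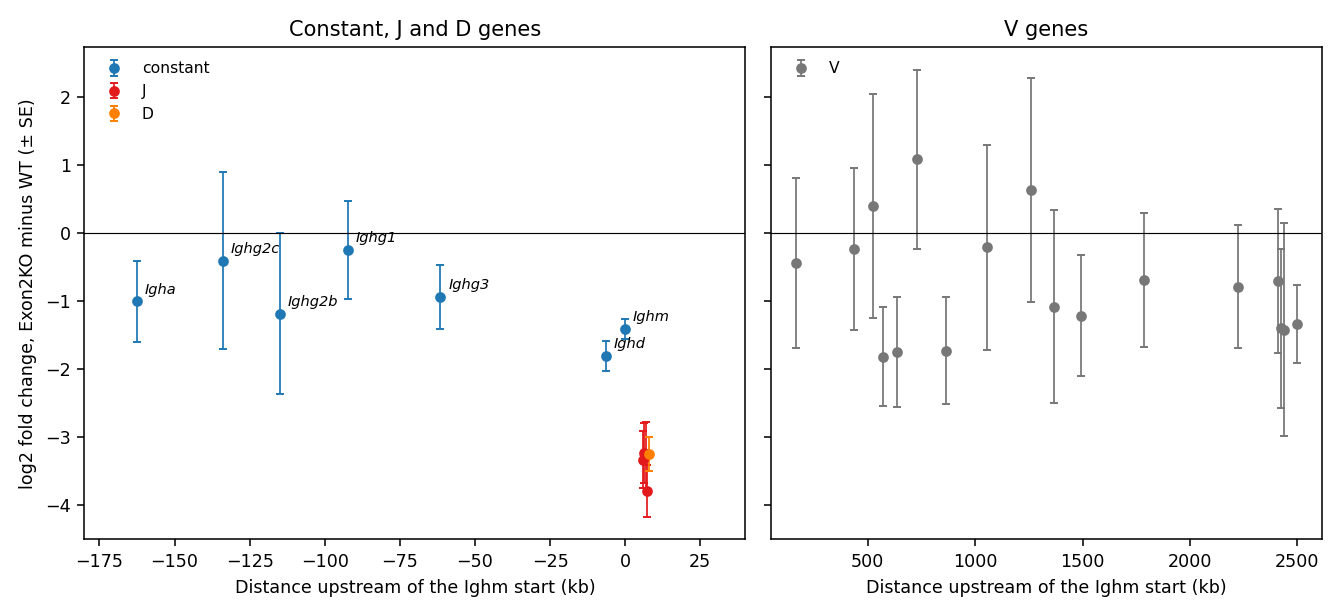
Log2 fold change of Exon2KO against WT (dots, with SE bars from edgeR) for the 29 tested members, by distance upstream of the Ighm start in kb, with constant, J and D genes on the left and V genes on the right. The 4 J genes and Ighd4-1, at -3.23 to -3.79, lie below every tested constant and V gene.

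The V genes, which encode most of the variable region and spread over the distal part of the locus, were low and uneven. Their 66 members held 10 to 189 counts each over the 6 libraries, with a median of 42.5. Counts were scattered: 6 V genes had a count in every library, 6 in only 1 library, and 39 had over 50% of their counts in a single library. WT libraries had counts for 43 to 51 of the V members and Exon2KO libraries for 28 to 40. These numbers depend in part on the count minimum, which was summed over both genotypes. By that sum, 9 V members were kept with 0 counts in all Exon2KO libraries and 3 with 0 counts in all WT libraries. Totals of V counts also differed, at 637 to 818 in WT and 320 to 522 in Exon2KO, at similar library depth.

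Among the 8 most abundant V genes, which held 29.9% of all V counts, the groups overlapped in 7, and in 1 every Exon2KO library lay below every WT library, as in 9.32% of all tested genes. Ighv3-6 had 67, 71 and 8 counts in WT 2, 6 and 20 against 17, 8 and 18 in Exon2KO 2, 6 and 20 (log2 fold change -1.73, SE 0.79). Ighv1-18 had 0, 54 and 2 counts in WT against 65, 4 and 16 in Exon2KO (log2 fold change 0.63, SE 1.65). The groups overlapped in both genes, and in Ighv1-18 a single library of each genotype held most counts. Ighv1-26 had 35, 52 and 1 counts in WT against 32, 9 and 0 in Exon2KO (log2 fold change -1.08, SE 1.42). Ighv6-3 had 12, 82 and 10 counts in WT against 2, 9 and 7 in Exon2KO; it was not tested, and it was the 1 whose groups did not overlap. Ighv1-76 had 2, 43 and 39 counts in WT against 18, 12 and 0 in Exon2KO (log2 fold change -1.40, SE 1.17), with overlapping groups. Ighv1-77 had 3, 24 and 59 counts in WT against 29, 0 and 0 in Exon2KO (log2 fold change -1.42, SE 1.56). Ighv5-17 had 44, 5 and 9 counts in WT against 29, 19 and 0 in Exon2KO (log2 fold change -0.23, SE 1.19). The groups overlapped in both genes. Ighv1-77 had most of its counts in WT 20 and Exon2KO 2, and Ighv5-17 in the number-2 library of each genotype. Ighv1-55 had 39, 7 and 20 counts in WT against 0, 16 and 23 in Exon2KO (log2 fold change -0.69, SE 0.99).

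The leading V gene differed in each of the 6 libraries. It was Ighv3-6 in WT 2 (9.17% of the library's V counts, 95% exact binomial interval 7.17% to 11.49%), Ighv6-3 in WT 6 (10.02%, 8.05% to 12.3%) and Ighv1-77 in WT 20 (9.26%, 7.13% to 11.8%). In the Exon2KO libraries it was Ighv1-18 in number 2 (16.7%, 13.1% to 20.8%), Ighv1-19 in number 6 (12.8%, 10.1% to 16.01%) and Ighv1-42 in number 20 (10.9%, 7.74% to 14.9%). These intervals cover counting error only. The leading 5 V genes together held 35.2% to 37.5% of V counts in WT libraries and 36.2% to 50.4% in Exon2KO libraries, ranges that overlap.

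By family, the 35 members of the large Ighv1 family summed to 19.3 ± 0.606 CPM in WT and 12.2 ± 2.35 CPM in Exon2KO (SD, n = 3 each). Of the 12 families with a member, it was the only one in which every Exon2KO library lay below every WT library. Among all tested genes, taken singly, 9.32% showed that separation. The Ighv5 family, with 6 members, summed to 3.81 ± 2.12 CPM in WT and 1.38 ± 1.14 CPM in Exon2KO, and the Ighv14 family, with 4 members, to 3.38 ± 1.74 and 1.32 ± 0.681 CPM. Both overlapped between genotypes. V genes resemble one another: 60 of the 66 shared at least 1 stretch of 50 bases with another heavy-chain gene, and a median of 20.9% of a member's 50-base windows was shared, up to 92.5% for Ighv1-72. How reads that fit several genes were counted is not stated, so the split between V paralogs is uncertain. Ighv1-5 also overlaps Mir7094-2 on the same strand.

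**Figure D3:**
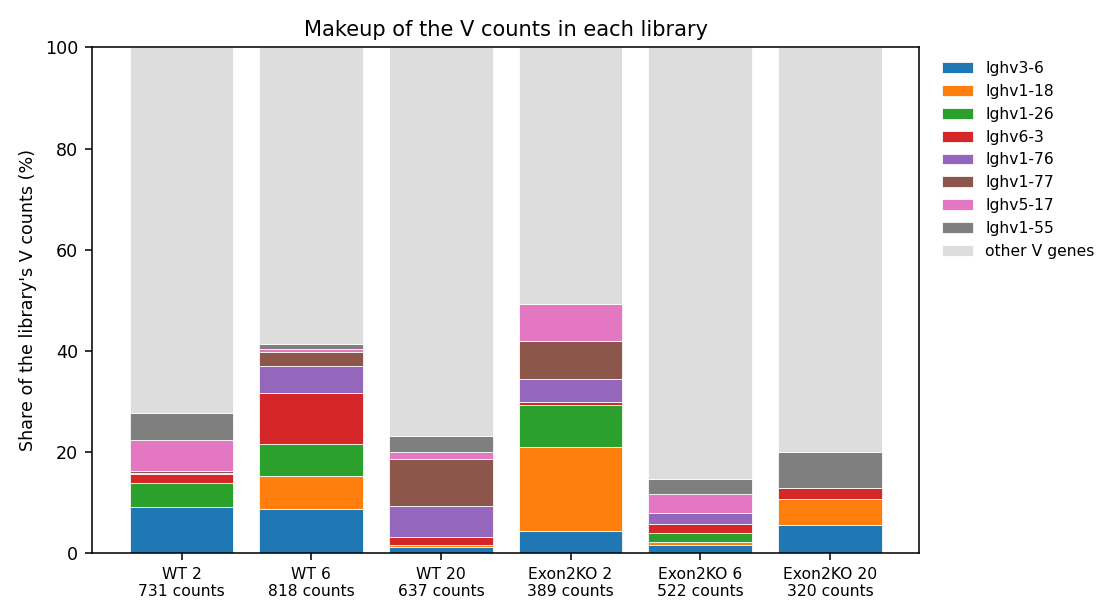
Share of each library's V counts (%) held by the 8 most abundant V genes (colours) and by the 58 other V members (grey), with the V count of each library under its bar. Ighv6-3 is widest in WT 6 and Ighv1-18 in Exon2KO 2, and the grey part is the largest of each bar.

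Of the 80 members, 29 had enough counts to be tested: 7 constant, 4 J, 1 D and 17 V genes. In edgeR, 7 were called lower in Exon2KO at an adjusted p under 0.05 (Ighm, Ighd, Ighd4-1 and the 4 J genes) and 0 were called higher; 0 members were higher at an unadjusted p under 0.05 either, DESeq2 called 1 higher and limma-voom 0. Across all 14919 genes tested with edgeR, 2.33% were called in either direction and 1.58% were called lower. DESeq2 called 643 of 15864 genes in either direction. Every Exon2KO library lay below every WT library in 2 of 7 constant, 4 of 4 J, 1 of 1 D and 1 of 17 V genes tested, against 9.32% of all tested genes. The 1 V gene was Ighv1-81, with 25, 25 and 26 counts in WT against 3, 20 and 6 in Exon2KO (log2 fold change -1.33, SE 0.57, adjusted p = 0.381, edgeR).

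Of the 17 tested V genes, 14 had a negative log2 fold change, with a median of -0.78, and 0 were called by edgeR; Ighv1-81 and Ighv14-2 had an unadjusted p under 0.05. DESeq2 called 2 of the V members, Ighv3-1 (higher) and Ighv5-9 (lower), and limma-voom 0. Over the whole table DESeq2 called 643 of the 15864 genes to which it gave an adjusted p, in either direction. Over all genes tested with edgeR 48.2% were negative and the median was 0.0084. Ighv14-3, with 41, 18 and 7 counts in WT against 10, 8 and 1 in Exon2KO, was called lower only with the block on the column number (log2 fold change -1.75, SE 0.51, adjusted p = 0.0411, edgeR). In that fit 10 members were called lower, against 5.79% of all tested genes. Without both libraries numbered 20, Ighv3-6, Ighv5-9 and Ighv10-1 were called lower by edgeR, against 362 of 14926 genes called in either direction. Ighv10-1 had 22, 15 and 3 counts in WT against 0, 0 and 33 in Exon2KO, so that Exon2KO 20 held its highest count. Of the V genes too low for the test, Ighv5-9 had 27, 17 and 7 counts in WT against 0 in each Exon2KO library. Ighv1-74 had 9, 15 and 14 counts in WT against 0 in each Exon2KO library. Ighv3-1 ran the other way, with 3, 0 and 0 counts in WT against 2, 35 and 14 in Exon2KO. These 3 genes were picked after their values were seen, because another setting or the authors' own comparison called them.

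The authors' deposited comparison, in which the share of all genes called was not counted, gave 9 members an adjusted p under 0.05. All were lower in Exon2KO, and 7 of them were the genes called with edgeR. The other two were Ighv5-9, with an adjusted p of 0.000706 in the authors' deposited table, and Ighv1-74, with 0.00327 there.

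Summed by class, constant genes stood at 966 ± 79.5 CPM in WT and 383 ± 89.6 CPM in Exon2KO (SD, n = 3 each), 2.53-fold lower. J genes summed to 21.8 ± 5.91 CPM in WT and 2.03 ± 0.237 CPM in Exon2KO, 10.8-fold lower. D genes summed to 8.08 ± 1.04 CPM in WT and 0.898 ± 0.206 CPM in Exon2KO, 9.003-fold lower. V genes summed to 38.1 ± 7.65 CPM in WT and 22.1 ± 4.41 CPM in Exon2KO, 1.72-fold lower. No class sum overlapped between genotypes, and the fold differed between the classes as listed, with no test of that difference. All members together took 0.0948% to 0.110% of a WT library's counts and 0.0303% to 0.0485% of an Exon2KO library's counts.

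Markers of the cells that normally make heavy chains were measured beside these sums. Of 17 B-cell genes, 15 were tested and 0 were called by edgeR, with 2 (Cd79b and Fcmr) at an unadjusted p under 0.05. DESeq2 called Cd79b alone, against 643 of 15864 genes in either direction, and limma-voom 0. With the block on the column number, Cd79b (log2 fold change -0.51, adjusted p = 0.00501, edgeR) and Fcmr (-1.23, adjusted p = 0.0226, edgeR) were called lower. In that fit 5.79% of all tested genes were called lower, against 1.58% without the block. The summed B-cell level was 71.8 to 89.9 CPM in WT and 58.4 to 80.1 CPM in Exon2KO, with the Exon2KO library lower within each of the 3 column numbers, and none of the 17 was at 0 throughout. Cd72, a B-cell surface receptor, was at 33.1, 14.8 and 12.1 CPM in WT against 33.1, 15.03 and 14.7 CPM in Exon2KO. Without Cd72, a choice made after seeing the data, the other 16 genes summed to 56.8 to 60.1 CPM in WT and 43.3 to 47.1 CPM in Exon2KO, which did not overlap. Of the 15 tested, 9 had a negative log2 fold change, with a median of -0.31. Blnk, an adaptor of B-cell receptor signalling, was at -1.10 (SE 0.51, not called), and Cd22, an inhibitory receptor, at -0.42 (not called). Cd79a, which carries the B-cell receptor's signal, had a log2 fold change of 0.15 (SE 0.25), and Ms4a1, which encodes CD20, one of 0.11. The part of B-cell content in the heavy-chain result was not tested.

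Of 12 plasma-cell genes, 10 were tested and 0 were called by edgeR, with 4 (Derl3, Irf4, Pou2af1 and Prdm1) at an unadjusted p under 0.05. DESeq2 called Derl3 and Pou2af1, against 643 of 15864 genes in either direction, and limma-voom 0. The summed level was 404 to 436 CPM in WT and 320 to 387 CPM in Exon2KO. That sum did not overlap between genotypes, and its part in the heavy-chain result was not tested. It was weighted to abundant genes: besides Irf4, mean CPM in WT and Exon2KO was 82.2 and 85.9 for Xbp1, 69.4 and 59.3 for Txndc5. For Tnfrsf13b it was 62.7 and 57.3. The genes too low to be tested were Tnfrsf17 and Mzb1. Tnfrsf17 had 5, 5 and 5 counts in WT against 3, 0 and 0 in Exon2KO, and Mzb1 had 6, 8 and 7 against 3, 7 and 3. Of the 10 tested, 6 had a negative log2 fold change, with a median of -0.18. Irf4 had 124 ± 8.46 CPM in WT and 98.2 ± 12.9 CPM in Exon2KO (SD, n = 3 each), and Prdm1 46.6 ± 7.19 and 20.95 ± 9.41 CPM (log2 fold change -1.15, not called), while Xbp1, Sdc1 and Fkbp11 had positive values. With the block, edgeR called Jchain (-0.74, adjusted p = 2.73e-04), Derl3 (-1.31, adjusted p = 0.0028) and Irf4 (-0.34, adjusted p = 0.00455) lower, against 5.79% of all tested genes. Pou2af1 (0.94, adjusted p = 0.0179, edgeR) was called higher with the block, against 3.93% of all tested genes. Irf4 and Prdm1 are also Treg factors. Jchain, which joins IgM and IgA into polymers, had 27.4, 31.01 and 12.6 CPM in WT 2, 6 and 20 and 16.4, 17.4 and 8.21 CPM in Exon2KO 2, 6 and 20, so its number-20 libraries were the lowest of each genotype, as for Igha.

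Light-chain segments gave 73 genes at the same count minimum, of which 19 were tested and 0 were called by edgeR, with 3 (Igkc, Igkv6-17 and Igkv9-124) at an unadjusted p under 0.05. DESeq2, run with no count filter, called 4 (Igkv10-94, Igkv14-111, Igkv6-17 and Igkv6-23), against 643 of 15864 genes in either direction, and limma-voom 0. They summed to 83.4 to 150.3 CPM in WT and 47.5 to 90.4 CPM in Exon2KO, which overlapped. Igkc, the kappa constant gene that pairs with heavy chains of any class, had 78.02, 90.5 and 48.0 CPM in WT against 36.6, 51.9 and 23.5 CPM in Exon2KO. With the block Igkc was called lower (log2 fold change -0.97, adjusted p = 1.04e-06, edgeR), and 2 of the 19 light-chain genes were called in that fit in all, against 9.72% of all tested genes in either direction.

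Of 13 genes for immunoglobulin recombination and class switching, 9 were tested and 0 were called by edgeR, DESeq2 or limma-voom, with 1 (Xrcc4) at an unadjusted p under 0.05. Rag2, a subunit of the recombinase, had 0 counts in all 6 libraries. The CD8 and NK list and the myeloid list also had 0 genes called by any of the 3 tools and 0 at an unadjusted p under 0.05. All 8 tested myeloid genes had a negative log2 fold change (median -0.37). With the block Lyz2, the lysozyme gene of myeloid cells, was called lower (-0.40, adjusted p = 0.0413, edgeR), against 5.79% of all tested genes. The summed myeloid level was 81.6 to 133.5 CPM in WT and 70.6 to 104.7 CPM in Exon2KO, which overlapped, although the Exon2KO library was lower within each of the 3 column numbers, and its part in the heavy-chain result was not tested. The CD8 and NK list had 0 calls with the block. Within 250 kb of the locus or inside it lay 18 genes with at least 10 counts that are not immunoglobulin segments; 12 were tested, 0 were called by edgeR, DESeq2 or limma-voom, 0 had an unadjusted p under 0.05, and their log2 fold changes ran from -1.34 to 1.44. In 2 of the 12, both inside the locus, every Exon2KO library lay below every WT library in CPM, against 9.32% of all tested genes. In 2 others, outside the locus, every Exon2KO library lay above. The share of all tested genes in that direction was not counted. Gm22175, an RNA gene between Ighj4 and Ighm, had 46, 14 and 21 counts in WT against 12, 14 and 9 in Exon2KO (log2 fold change -1.15, SE 0.51, not called). Adam6b, which lies between the V and D segments, had 26, 15 and 26 counts in WT against 13, 11 and 1 in Exon2KO (log2 fold change -1.34, SE 0.63, not called).

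**Figure D4:**
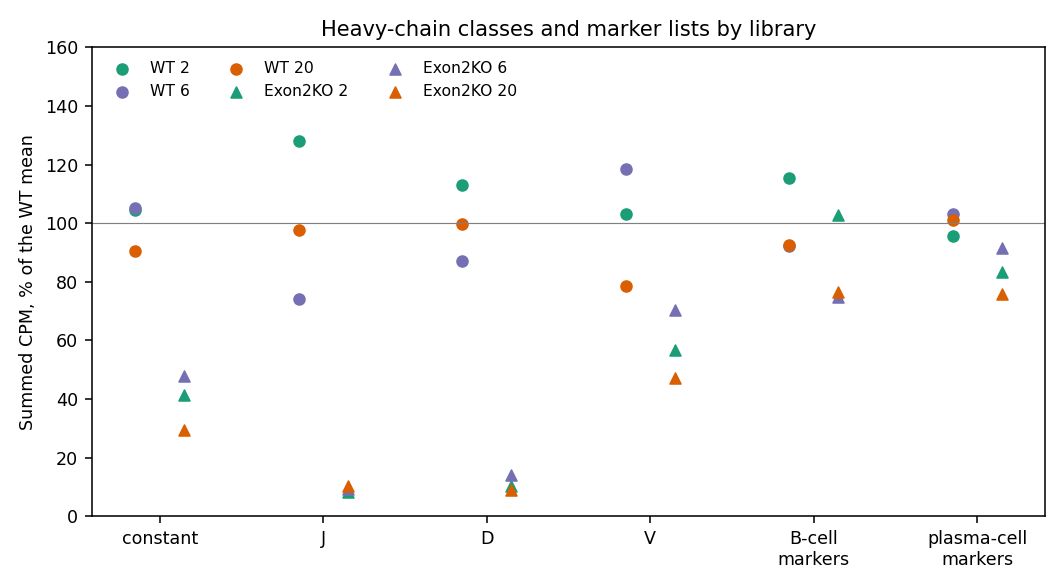
Summed CPM of each heavy-chain class and of the B-cell and plasma-cell marker lists in each library, as a percentage of the WT mean of that sum (grey line at 100), with circles for WT and triangles for Exon2KO. The Exon2KO libraries lie lowest for the J and D sums, between them and the WT level for the constant and V sums, and nearest the WT level for both marker lists. Each marker sum is weighted to the most abundant genes of its list.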

How the data were processed

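RNA from WT and Exon2KO Tregs was sequenced in 3 libraries each. The authors deposited 1 table of counts per gene, which are whole numbers and not normalised, with each gene's length, and their own comparison as a log2 fold change with an adjusted p-value, per the file headers. The submitters' processing notes name HISAT2 2.0.5, StringTie 1.3.3b, featureCounts 1.5.0-p3, DESeq2 1.16.1 and the build mm10 (GRCm38); strand setting and the counting of multiply mapped reads are not given in the sources used here. All 80 members had the same position in GENCODE release 21.

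Counts were tested with edgeR 4.0.16 in R 4.3.3 (filterByExpr, TMM, robust quasi-likelihood fit, two-sided, Benjamini-Hochberg adjustment over 14919 genes, threshold 0.05). Gene lists and members were chosen with earlier results of these data known. Named were all constant genes, D and J genes called or at 1 CPM or more (Ighd1-1 as the remaining member), the 8 most abundant V genes and called V genes. The block treats libraries that share a column number as pairs. Their deviations from the group means correlated at 0.271, 0.369 and 0.494 for numbers 2, 6 and 20. Correlations between libraries of unlike numbers were not computed, so the pairing is assumed. No label says what the numbers stand for. P-values measure the spread between these libraries, which may be technical. V promoters were not analysed here, and 1 gene of the B-cell list enters its counts and sums while its own values are not reported here. The code was tested on simulated data. Alternatives were no count filter, RLE and upper-quartile scaling, DESeq2 1.42.0, limma-voom (limma 3.58.1), the block, leaving out each library, total-count scaling for class sums and, added after seeing the data, leaving out both number-20 libraries.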

Additional observations from a re-analysis of the deposited data

How the results depend on the processing

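The count of members called lower was 7 and lay between 6 and 12 over 13 alternatives. It was 10 with the replicate block and 6 to 9 when 1 library was left out, and 12 without both libraries numbered 20. These fits tested 29, 39 to 45 and 34 members. Over all genes, in either direction, the block called 1450 of 14919. Leaving out 1 library called 86 to 314 of 15317 to 15494, and leaving out both number-20 libraries 362 of 14926. With no count filter 617 of 26773 genes were called, and with DESeq2 643 of 15864. Ighm, Ighd, Ighd4-1, Ighj1, Ighj3 and Ighj4 were called in all 13, and Ighj2 in 11. Members called higher numbered 0 except with DESeq2, which called 1, Ighv3-1. With 1 library left out, log2 fold changes ran from -1.29 (without Exon2KO 6) to 0.46 (without WT 6) for Ighg2c, which was also positive without Exon2KO 2 (0.17) and was at -1.49 with limma-voom. They ran from -1.23 (without Exon2KO 6) to 0.22 (without Exon2KO 2) for Ighg1, which was at 0.026 without both number-20 libraries. None of these was called, and the cause was not tested. V genes that gained a call as lower were Ighv3-6 and Ighv5-9 without WT 20, Ighv1-74 without Exon2KO 20, Ighv1-74 and Ighv5-9 with no count filter, Ighv5-9 with DESeq2, and Ighv3-6, Ighv5-9 and Ighv10-1 without both number-20 libraries. Beyond Igha, Ighg2b and Ighv14-3, the block changed no member's call. The log2 ratios of the class sums kept their sign in 10 alternatives each: -1.51 to -1.17 (constant), -3.60 to -3.21 (J), -3.38 to -3.04 (D) and -0.95 to -0.64 (V). Low counts limit most V genes and the D gene Ighd1-1.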
